A study of Mus musculus with 14 samples.

Results

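The 10 genes described here are read as signs of glucocorticoid action or of stress in liver, and they were measured in the livers of 14 diabetic mice, 7 given indole and 7 given water. They are *Nr3c1*, *Mt1*, *Mt2*, *Fkbp5*, *Tsc22d3*, *Sgk1*, *Tat*, *Lpin1*, *Cdkn1a* and *Zbtb16*, and they were chosen by name, as 10 of the 55487 gene rows of the count table. All 10 had reads in every mouse and passed the filter on low counts, which left 12653 genes for testing. None of the 10 passed a test of the difference between the groups. *Mt1* and *Mt2* moved together from mouse to mouse (r=0.993), and *Mt1* was 12.2 times as high in the highest as in the lowest mouse.

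The mice were male TALLYHO/JnG animals aged 8–12 weeks, an inbred line with polygenic obesity and type 2 diabetes, and no transgene or deletion was involved. The vehicle group received water by oral gavage, and the indole group received 20 mg/kg of indole, a tryptophan product of gut bacteria, in the same way. Dosing was 2 times a day for 7 days, with 2 more doses around glucose and insulin tolerance tests, and a piece of the right liver lobe was frozen at day 11. All mice of both groups thus carried the handling of repeated gavage and tolerance tests, and no unhandled mice were part of the comparison. Mice are named by their library, with G1, G4, G6, G9, G10, G11 and G13 in the vehicle group and G2, G3, G5, G7, G8, G12 and G14 in the indole group.

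Total counts lay between 15197498 and 21060376 reads per mouse. The labelled tissue was matched by its markers, since 7 hepatocyte genes summed to between 80100 and 116000 CPM in every mouse (CPM, counts scaled to a common library size with TMM factors). Kupffer cell and macrophage markers summed to 153–338 CPM in vehicle-treated mice and to 171–827 CPM in indole-treated mice, with the highest value in G8. Of 5 adrenal cortex genes, *Cyp11a1*, *Cyp11b1* and *Mc2r* had no reads in any mouse, while *Cyp21a1* and *Star* had some. The 5 summed to 0.4–1.05 CPM in vehicle-treated mice and to 0.586–1.73 CPM in indole-treated mice, with the highest value in G2. The samples were whole pieces of liver, so fewer cells of a type and less RNA per cell cannot be told apart.

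Glucocorticoids, chiefly corticosterone in mice, enter the hepatocyte and bind a receptor that waits in the cytosol with heat shock proteins. The bound receptor moves to the nucleus, pairs on DNA at palindromes of the hexamer AGAACA, and raises genes of amino acid breakdown and glucose production, together with genes that limit its own action. Metallothioneins are small cysteine-rich proteins that bind zinc and copper. Their genes are induced by zinc through the factor MTF1, which reads metal response elements, and also by glucocorticoids, inflammation and fasting. Corticosterone itself was not analysed here.

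The metallothionein genes lie next to each other on chromosome 8 of GRCm38, *Mt2* (ENSMUSG00000031762) from 94172664 to 94173568 and *Mt1* (ENSMUSG00000031765) from 94179082 to 94180327. Both are on the plus strand, with 5513 bases between the end of *Mt2* and the start of *Mt1* in the table. The 250 bases before the RefSeq start of each gene are shown because these 2 genes moved together. The sequences are from RefSeq on GRCm38.p6, plus strand, with *Mt2* at chr8:94172368-94172617 and *Mt1* at chr8:94178839-94179088. Capitals mark the letters of the metal response element, TGCACNC or TGCGCNC, on either strand.
Mt2: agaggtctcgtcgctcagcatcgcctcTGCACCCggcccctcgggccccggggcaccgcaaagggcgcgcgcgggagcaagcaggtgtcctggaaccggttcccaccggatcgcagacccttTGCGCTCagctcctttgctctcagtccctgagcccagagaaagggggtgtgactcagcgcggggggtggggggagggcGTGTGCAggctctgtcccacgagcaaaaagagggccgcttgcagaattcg
Mt1: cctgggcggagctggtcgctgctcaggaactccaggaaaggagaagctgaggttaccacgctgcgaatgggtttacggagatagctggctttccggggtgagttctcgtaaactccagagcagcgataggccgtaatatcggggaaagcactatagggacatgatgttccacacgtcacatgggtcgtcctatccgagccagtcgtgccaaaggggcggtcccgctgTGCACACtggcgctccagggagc

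With the start base counted as position 1 and the base before it as −1, the element began at −223, −128 and −50 in the *Mt2* window and at −23 in the *Mt1* window. A further match began at 5 in *Mt2*, and 2 more at 3 and 21 in *Mt1*, past the stretches printed. Shorter annotated transcripts start downstream, at 94179211 and 94179241 for *Mt1* and at 94172860 for *Mt2*. The matches past the stretches printed lie before these starts, and windows set on these starts were not searched. Windows of 250 bases before to 50 after a start held at least 1 such match in 25.7% of the 32851 RefSeq windows and at least 3 in 1.97%. These matches are letters in a window and not measured binding sites.

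*Mt1* was at 516 CPM in G1, 562 in G4, 403 in G6, 269 in G9, 292 in G10, 186 in G11 and 152 in G13 among vehicle-treated mice. Among indole-treated mice it was at 182 CPM in G2, 416 in G3, 157 in G5, 242 in G7, 221 in G8, 45.9 in G12 and 63.2 in G14. Of the 7 indole-treated mice, 6 lay below the vehicle median, and G12 and G14 lay below every vehicle-treated mouse, while G3 was among the higher mice of either group. The means were 340±159 CPM for vehicle and 189±124 CPM for indole (SD, *n*=7 each).

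The log2 fold change of *Mt1*, indole against vehicle, was −0.84±0.472 (standard error, as for all fold changes that follow), with an unadjusted *p*=0.099 and an adjusted *p*=0.998 from edgeR. On mean log2 CPM the difference was −1.02, with *p*=0.0647 when every split of the mice was enumerated (two-sided exact permutation test, smallest possible *p*=0.000583). The same permutation test is given for the other genes. Neither test placed the difference beyond the variation from mouse to mouse. Without indole-treated mouse G3 the log2 fold change was −1.17 (unadjusted *p*=0.026 and adjusted *p*=0.953 from edgeR), and limma's voom with sample weights gave −0.97 (unadjusted *p*=0.0244, adjusted *p*=0.989).

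*Mt2* lay between 160 and 560 CPM in vehicle-treated mice (median 283) and between 52.7 and 425 CPM in indole-treated mice (median 167). Indole-treated mice G5, G12 and G14 lay below all vehicle-treated mice, at 158, 52.7 and 58.1 CPM, and G3 was at 425 CPM, above 5 of the vehicle-treated mice. The means were 331±140 and 195±129 CPM (SD, *n*=7 per group). By edgeR the log2 ratio was −0.76±0.459, with an adjusted *p*=0.998. The exact permutation test gave a difference of −0.98 in mean log2 CPM with *p*=0.0699, and −1.22 with *p*=0.0181 without G3.

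The ratio of *Mt1* to *Mt2* counts needs no scaling between libraries, and it stayed between 0.873 in G12 and 1.17 in G1 while the sum of both genes went from 98.6 CPM in G12 to 1120 CPM in G4. The mean log2 ratio was 0.01±0.132 for vehicle and −0.03±0.124 for indole (SD, *n*=7 each). The difference of −0.04 had *p*=0.543 (two-sided exact permutation test). The authors kept uniquely mapped reads, so reads from stretches that the 2 genes share could have been lost from both counts.

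The receptor gene *Nr3c1* (ENSMUSG00000024431, chromosome 18 from 39410545 to 39519421) ranged from 68.9 to 93.9 CPM in vehicle-treated mice (median 79.6) and from 58.9 to 87.5 CPM in indole-treated mice (median 76.5). The groups overlapped over most of their range, with 1 indole-treated mouse, G5, below all vehicle-treated mice. The means were 79.6±7.86 and 75.4±9.35 CPM (SD, *n*=7 per group). By edgeR the log2 ratio was −0.08±0.0846 (exact permutation *p*=0.379).

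For 3 genes that restrain or report receptor action, no difference between the groups passed a test. *Fkbp5* (ENSMUSG00000024222, chromosome 17 from 28399094 to 28517527) encodes a co-chaperone that lowers the receptor's affinity for hormone and is itself induced by it. It was at 18.5–36.3 CPM in vehicle-treated mice (median 22.8) and 19.3–28.1 CPM in indole-treated mice (median 26.0). The group means were 25.1±7.0 and 23.9±3.62 CPM (SD, *n*=7 each), and no indole-treated mouse lay outside the vehicle range. Indole against vehicle gave −0.07±0.148 on the log2 scale (edgeR), and the exact permutation *p* was 0.795.

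*Tsc22d3* (ENSMUSG00000031431, chromosome X from 140539528 to 140600659) encodes the leucine zipper protein GILZ, which carries part of the anti-inflammatory action of glucocorticoids. Its range in the vehicle group, 38.0–105 CPM around a median of 61.4, enclosed that of the indole group, 53.6–82.5 CPM around a median of 61.2. The highest vehicle-treated mouse was G4 and the lowest was G13. The means were 61.1±22.3 and 66.2±11.7 CPM (SD, *n*=7 each). On the log2 scale edgeR gave 0.12±0.201 (exact permutation *p*=0.429). The value depended on single vehicle-treated mice, and was 0.03 without G13, 0.04 without G9 and 0.30 without G4.

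*Sgk1* (ENSMUSG00000019970, chromosome 10 from 21882184 to 21999903) encodes a kinase first known for its induction by serum and glucocorticoids. It lay between 13.2 and 41.2 CPM in vehicle-treated mice (median 20.1) and between 14.9 and 45.7 CPM in indole-treated mice (median 22.5). The means were 23.5±9.70 and 24.5±10 CPM (SD, *n*=7 each). Its fold change by edgeR was 0.06±0.287 on the log2 scale (exact permutation *p*=0.795), and without indole-treated mouse G12, the highest, it was −0.16.

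*Sgk1* was the only gene of the 10 with the full receptor palindrome, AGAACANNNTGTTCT, in a RefSeq window. The palindrome starts at −189 before the start at 21993890, within introns of longer *Sgk1* transcripts, and the stretch chr10:21993681-21993735 (GRCm38.p6, plus strand) is shown with it in capitals.
Sgk1: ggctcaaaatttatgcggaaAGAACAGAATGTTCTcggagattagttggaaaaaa

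Of all 32851 windows, 3 held this palindrome on the plus or minus strand, or 0.00913%. The hexamer AGAACA, which the palindrome contains on each strand, was in 19.0% of windows. The *Sgk1* windows held the hexamer 5 times, counting those within the palindrome. The hexamer was also found at −185 in a *Tsc22d3* window and at −163 in the *Lpin1* window. Neither hexamer nor palindrome was in the windows of *Mt1*, *Mt2*, *Fkbp5*, *Tat* or *Cdkn1a*. Many receptor sites lie outside windows of this length. *Nr3c1* and *Zbtb16* were not searched.

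For the metabolic genes *Tat* and *Lpin1*, too, no difference passed a test. *Tat* (ENSMUSG00000001670, chromosome 8 from 109990437 to 109999803) encodes tyrosine aminotransferase, the classical glucocorticoid-induced enzyme of the hepatocyte, which starts tyrosine breakdown. It was at 775–1550 CPM in vehicle-treated mice (median 907) and 627–2080 CPM in indole-treated mice (median 1070). G12 at 2080 CPM was above every vehicle-treated mouse and G2 at 627 CPM was below every one. The means were 966±264 and 1160±469 CPM (SD, *n*=7 each). The fold change by edgeR was 0.26±0.237 on the log2 scale (exact permutation *p*=0.415), and it was 0.06 without G12 and 0.41 without vehicle-treated mouse G11, the highest of its group.

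*Lpin1* (ENSMUSG00000020593, chromosome 12 from 16535669 to 16646966) encodes lipin 1, a phosphatidate phosphatase of triacylglycerol synthesis that also acts with PGC-1α in fasted liver. Vehicle-treated mice spread from 70.7 to 142 CPM (median 104). Of the indole-treated mice 5 lay close together between 77.4 and 80.7 CPM, and G14 at 144 and G12 at 179 CPM were above all vehicle-treated mice (median 80.4). The means were 106±25.1 and 103±41.3 CPM (SD, *n*=7 each). By edgeR the fold change was −0.05±0.229 on the log2 scale (exact permutation *p*=0.685).

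*Zbtb16* and *Cdkn1a* had few reads. *Zbtb16* (ENSMUSG00000066687, chromosome 9 from 48654297 to 48836222) encodes the zinc finger repressor PLZF, a sensitive glucocorticoid target in many cell types. It had 23–203 reads per mouse, or 1.12–7.20 CPM in the vehicle group (median 4.45) and 2.0–11.4 CPM in the indole group (median 3.57). The lowest mouse was G9 of the vehicle group, and G5, G12 and G14 of the indole group were the highest together with G11 of the vehicle group. The means were 4.41±2.28 and 5.53±3.60 CPM (SD, *n*=7 each). The log2 ratio by edgeR was 0.33±0.462 (exact permutation *p*=0.582). It was 0.05 without G12 and 0.16 without G9, and the difference in mean log2 CPM, 0.28, was 0.0017 without G9.

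*Cdkn1a* (ENSMUSG00000023067, chromosome 17 from 29090976 to 29100727) encodes the cell cycle inhibitor p21, which is induced by p53 and by several stresses. It had only 3–32 reads per mouse, so its values carry a large counting error. In the vehicle group G11 was at 1.5 CPM (27 reads) and the others were between 0.659 and 0.927 CPM. In the indole group G8 was at 2.15 CPM (32 reads), G14 was at 0.176 CPM (3 reads) and the others were between 0.451 and 0.720 CPM. The log2 ratio by edgeR was −0.16±0.394 (*p*=0.683), and the exact permutation test gave a difference of −0.32 in mean log2 CPM with *p*=0.388. This difference depended on single mice. It was −0.59 without G8 (exact permutation *p*=0.0157), −0.19 without G11 (*p*=0.589, same test) and −0.096 without G14 (*p*=0.74, same test).

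**Figure D1:**
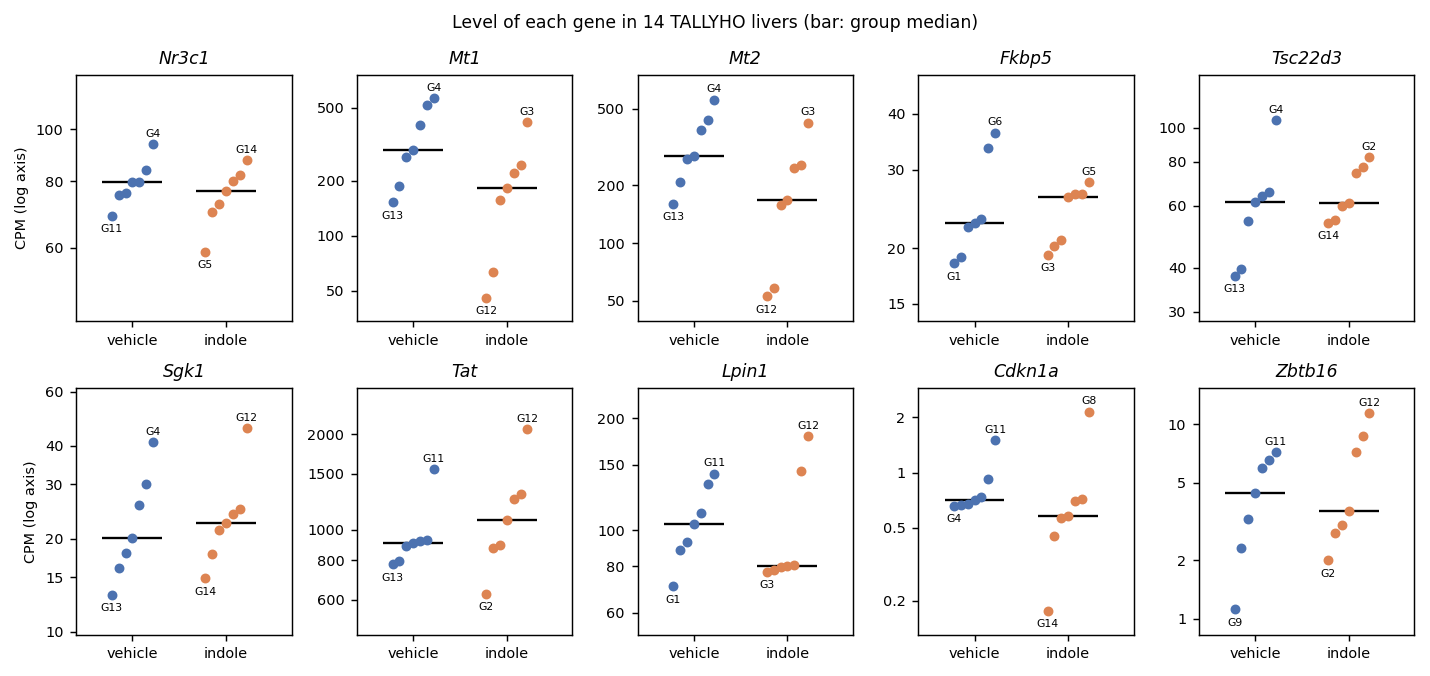
CPM on a log axis for each of the 10 genes in vehicle-treated mice (blue) and indole-treated mice (orange), with 1 point per mouse, points ordered by value within a group, a bar at the group median and the lowest and highest mouse of each group named. *Mt1* and *Mt2* show 2 indole-treated mice at 45.9–63.2 CPM below the rest, and the groups overlap for all 10 genes.

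Over the 10 genes, 0 had an unadjusted *p* below 0.05, against 3.81% of all genes tested (482 of 12653, with 1.53% higher and 2.28% lower under indole). At an adjusted *p* below 0.05 edgeR called 0 of the 10, against 0.00% of all genes, and each of the 10 had an adjusted *p*=0.998. The median log2 fold change of the 10 was −0.06, with 6 below 0, beside a median of 0.00 over all genes, of which 48.7% were below 0. The ranges of the 2 groups did not separate for any of the 10, and they did so for 0.0474% of all genes. The values for *Mt1* and *Mt2* lay below, and that of *Zbtb16* (0.33) lay above, the −0.29 to 0.31 that held the central 90% of all genes, each with the wide error given above.

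**Figure D2:**
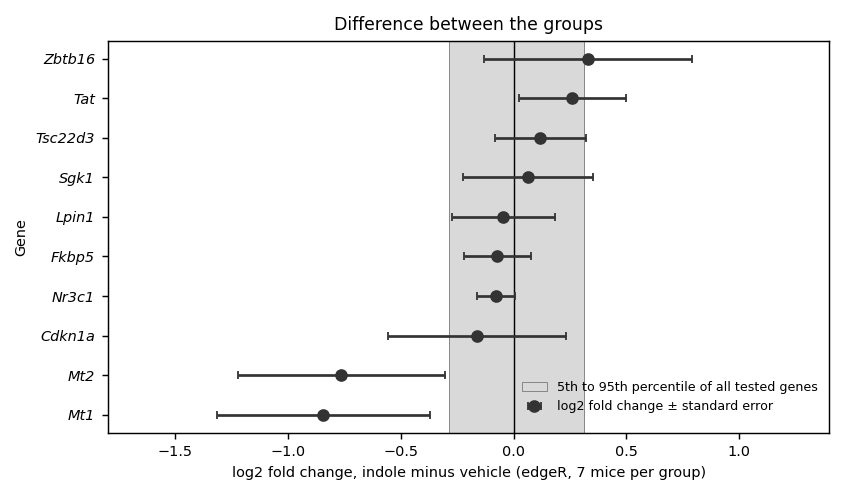
The log2 fold change of each gene, indole against vehicle, with its standard error from edgeR (7 mice per group), and in grey the 5th to 95th percentile of the log2 fold changes of all tested genes. *Mt1* at −0.84 and *Mt2* at −0.76 are furthest from 0 and have the widest errors beside *Zbtb16* and *Cdkn1a*.

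Several of these genes varied widely between mice of the same group. The standard deviation of log2 CPM within groups was 0.938 for *Mt1*, 0.928 for *Zbtb16* and 0.907 for *Mt2*, at percentiles 98.6, 98.5 and 98.4 of all tested genes. *Cdkn1a* stood at percentile 94.4, *Sgk1* at 87.7, *Tat* at 81.6, *Lpin1* at 79.9 and *Tsc22d3* at 75.8. *Fkbp5* stood at 64.4 and *Nr3c1* at 25.5. For *Zbtb16* and *Cdkn1a* the spread includes the counting error of few reads, whereas *Mt1* and *Mt2* had at least 815 and 934 reads in every mouse.

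Per kilobase of the gene length in the table, *Mt2* and *Tat* had the highest levels, at 446±251 and 441±158 CPM per kilobase (SD over 14 mice). Their order was not settled, since *Mt2* was above *Tat* in 8 of 14 mice. *Mt1* followed at 212±126 and was below *Tat* in 12 of 14 mice. Its gene length of 1246 bases is its whole span on the chromosome, while that of *Mt2*, 588 bases, is less than its span. *Mt1* and *Mt2* had 65755 and 65168 reads in all, so their order per kilobase reflects these lengths. The place of *Mt1* below *Tat* also depends on its length. A wide step led down to *Tsc22d3* at 14.7±3.98 CPM per kilobase, which was below *Mt1* in all 14 mice, with no overlap of their ranges. *Lpin1* at 10.5±3.31 and *Nr3c1* at 10.1±1.12 could not be ordered, with *Lpin1* higher in 7 of 14 mice. *Sgk1* (4.89±1.93), *Fkbp5* (2.59±0.569), *Zbtb16* (0.940±0.559) and *Cdkn1a* (0.225±0.136) came last, each below its neighbour in 13 or 14 of the 14 mice but with overlapping ranges.

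Covariation between the mice was read from the 45 pairs of the 10 genes, with Pearson's r and Spearman's rho of log2 CPM over 14 mice. Of these pairs 23 had a positive and 22 a negative r. Of the 45, 5 had an r of 0.6 or more, against 3.33% of all pairs of tested genes, and 3 had an r of −0.6 or less, against 3.08%. Together that was 17.8% of the 45 pairs, beside 6.41% of all pairs. *Mt1* and *Mt2* had r=0.993, so their pairs with a further gene count nearly the same relation again. Without G12 and G14, r was 0.986 for *Mt1* with *Mt2*, 0.727 for *Tsc22d3* with *Sgk1* and 0.614 for *Tat* with *Zbtb16*. The rest of these strong pairs then fell short of 0.6 in either direction. With Benjamini-Hochberg adjustment over the 45 pairs, 2 passed at 0.05, *Mt1* with *Mt2* and *Tat* with *Zbtb16*, and 11 had an unadjusted *p* below 0.05.

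**Figure D3:**
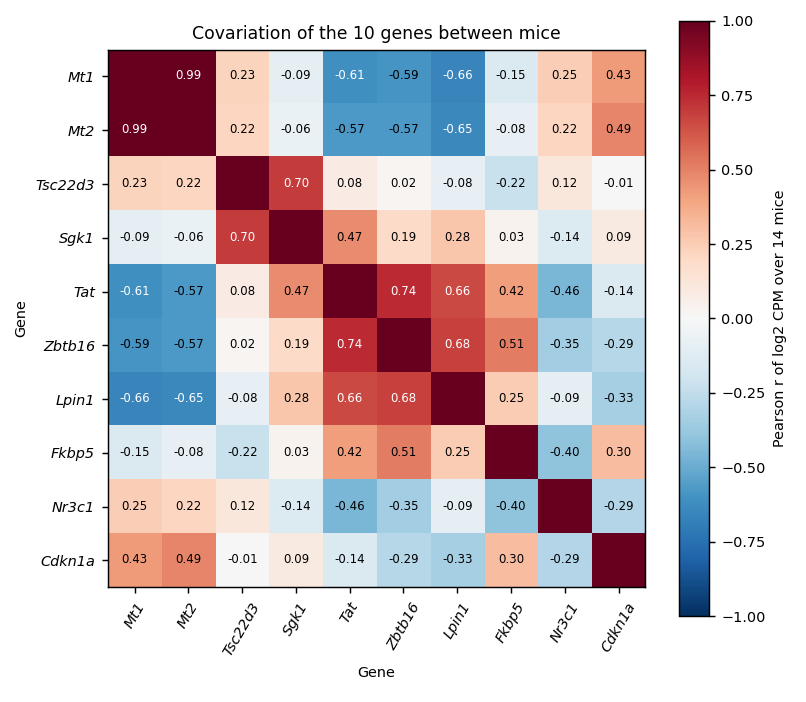
Pearson's r of log2 CPM over 14 mice for each pair of the 10 genes, from −1 (blue) to 1 (red), with the value in each cell. *Tat*, *Zbtb16* and *Lpin1* form a positive set at 0.66–0.74 that is negative with *Mt1* and *Mt2*, and *Tsc22d3* pairs with *Sgk1* at 0.70.

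*Mt1* and *Mt2* had r=0.993 and rho=0.991, each with a permutation *p*=1e-05, the smallest that 100000 permutations can give, and an adjusted *p*=0.00045. Without G12 and G14, the mice farthest from the *Mt1* median, r was 0.986. Within the groups r was 0.989 for vehicle and 0.994 for indole.

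*Tat* and *Zbtb16* had r=0.745 (permutation *p*=0.00198, adjusted *p*=0.0445) and rho=0.732 (permutation *p*=0.00415, adjusted *p*=0.0622). Mice G5, G11, G12 and G14 were the 4 highest for both genes. Without G11 and G12, r was 0.627. It was 0.455 among vehicle-treated and 0.942 among indole-treated mice, a difference that was not tested. The adjusted *p* stayed below 0.05 in 4 of the 14 fits that left out 1 mouse, and it was 0.188 without G12.

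*Lpin1* had positive values with both, at r=0.684 with *Zbtb16* (rho=0.741, permutation *p*=0.00749, adjusted *p*=0.072) and r=0.662 with *Tat* (rho=0.512, permutation *p*=0.00842, adjusted *p*=0.072). These values rested in part on single mice, and were 0.475 without G12 and G14 and 0.241 without G11 and G12. Neither pair passed the adjusted threshold over all 14 mice. When each gene was centred on its group means both did, with r=0.716 for *Zbtb16* and 0.714 for *Tat* (adjusted *p*=0.0309 for each). Each pair passed in only 1 of the 14 fits that left out 1 mouse, the fit without G5 (adjusted *p*=0.034 for each). Without G12 the adjusted *p* was 0.443 for *Zbtb16* and 0.467 for *Tat*.

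The metallothioneins had negative values with these 3 genes, of which none passed the adjusted threshold. *Mt1* had r=−0.662 with *Lpin1* (rho=−0.521, permutation *p*=0.0096, adjusted *p*=0.072), and *Mt2* had r=−0.647 (rho=−0.521, permutation *p*=0.0119, adjusted *p*=0.0768). *Mt1* had r=−0.611 with *Tat* (rho=−0.305, permutation *p*=0.0215, adjusted *p*=0.121) and r=−0.586 with *Zbtb16* (rho=−0.56, permutation *p*=0.0265, adjusted *p*=0.131). All of these values were closer to 0 without G12 and G14, where r with *Mt1* was −0.224 for *Lpin1*, −0.163 for *Tat* and −0.234 for *Zbtb16*. Mouse G12 was the highest of all 14 for *Tat*, *Sgk1*, *Lpin1* and *Zbtb16* and the lowest for *Mt1* and *Mt2*.

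The relation of *Mt1* with *Lpin1* had the same sign inside each group, at r=−0.645 in vehicle-treated mice (exact permutation *p*=0.117) and r=−0.929 in indole-treated mice (exact permutation *p*=0.00238). When each gene was centred on its group means, r was −0.841 for *Mt1* and −0.822 for *Mt2* with *Lpin1*, with an adjusted *p*=0.0048 for each. In the indole group *Lpin1* was at 179 CPM in G12 and 144 CPM in G14, and at 77.4–80.7 CPM in every other mouse. Without G12 and G14 the uncentred r was −0.224 for *Mt1* and −0.186 for *Mt2*. The within-group and centred values were not computed without these mice.

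**Figure D4:**
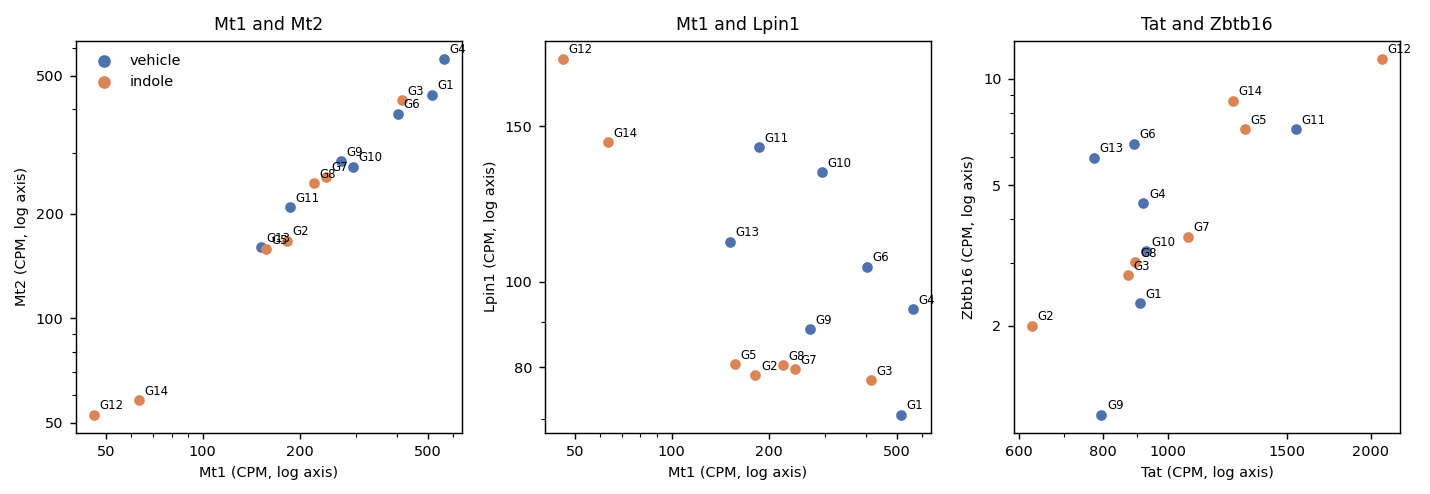
CPM of *Mt2* against *Mt1*, *Lpin1* against *Mt1*, and *Zbtb16* against *Tat*, all on log axes, with 1 labelled point per mouse in blue (vehicle) or orange (indole). The first pair lies on a line, and G12 lies at an end of all 3 plots.

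*Tsc22d3* and *Sgk1* had r=0.698 (rho=0.644, permutation *p*=0.00543, adjusted *p*=0.072). Mouse G4 was the highest for *Tsc22d3* and the second highest for *Sgk1*, and G13 was the lowest for both. Without these 2 mice r was 0.449, and it was 0.885 among vehicle-treated and 0.375 among indole-treated mice, a difference that was not tested. Centred on group means the pair had r=0.702 with an adjusted *p*=0.0319. *Fkbp5*, which is induced by the same receptor, had r=−0.224 with *Tsc22d3* and 0.03 with *Sgk1*. *Fkbp5*, *Nr3c1* and *Cdkn1a* had no pair at or beyond 0.6 in either direction.

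**Figure D5:**
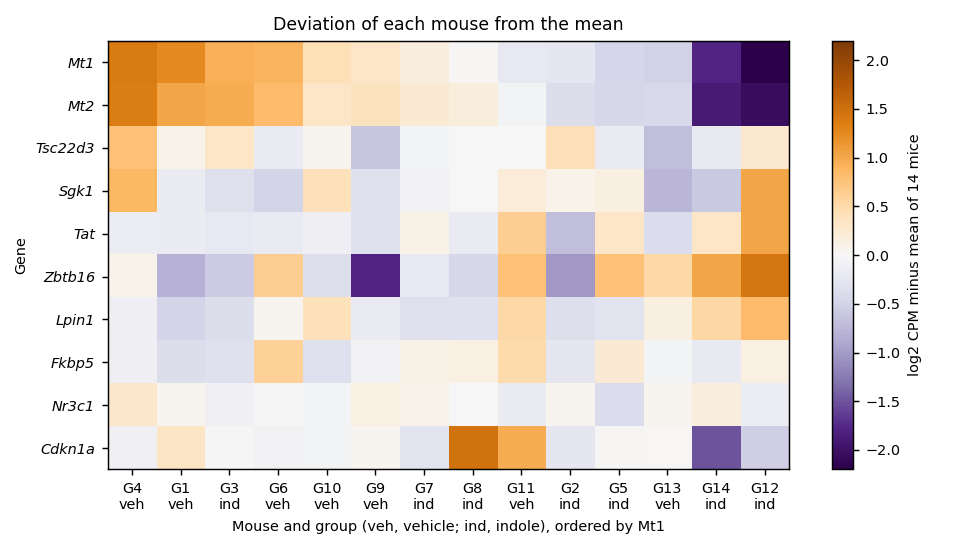
Deviation of log2 CPM from the mean of 14 mice for each gene (rows) and mouse (columns, ordered from the highest to the lowest *Mt1*), in orange where higher and in purple where lower. G12 and G14 at the right are low for *Mt1* and *Mt2* and high for *Zbtb16* and *Lpin1*, and no mouse is above the mean for all 10 genes.

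A set of 5 reference levels was compared with the 10 genes in 50 relations, namely the summed acute phase genes, the summed macrophage markers, the log2 difference of the clock genes *Dbp* and *Arntl*, the fasting gene *Pdk4* and the total count. None passed at an adjusted *p* below 0.05, and 2 had an unadjusted *p* below 0.05. *Cdkn1a* had r=0.673 with the macrophage markers (rho=0.745, permutation *p*=0.0191, adjusted *p*=0.754), and 0.656 without G8 and G14. *Tsc22d3* had r=0.577 with *Dbp* minus *Arntl* (rho=0.6, permutation *p*=0.0301, adjusted *p*=0.754), and 0.59 without G4 and G13. The hour at which each liver was taken is not given in the sources used here.

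No reference level differed between the groups beyond the spread between mice. *Pdk4* differed by 0.41 on the log2 scale (exact permutation *p*=0.114), *Dbp* minus *Arntl* by 0.22 (*p*=0.383), the macrophage sum by 0.14 (*p*=0.739), the acute phase sum by −0.16 (*p*=0.259) and the total count by −0.05 (*p*=0.565), all by exact permutation tests of 7 against 7 mice.

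The genes most like *Mt1* over the 14 mice, as a description without a test, were *Mt2* and then *Gm45774* (r=0.962), a gene annotated on the opposite strand across *Mt2*. *Gm45774* had 1704 reads in all against 65168 for *Mt2*. The libraries keep the strand but the setting of the read counter is not given in the sources used here, so reads of this pair cannot be told apart. The next were the matrix genes *Lama4* (0.896), *Col1a1* (0.887) and *Col3a1* (0.855) and the cytoskeletal gene *Shroom3* (0.864). *Col1a1* went from 1.75 CPM in G12 to 12.1 CPM in G1, and without G12 and G14 its r was 0.708, while that of *Col3a1* was 0.551. Among vehicle-treated mice r was 0.563 for *Col1a1* and 0.316 for *Col3a1*, and among indole-treated mice it was 0.937 and 0.947. *Col1a1* and *Col3a1* are also markers of stellate cells, whose 8 markers summed to 274–330 CPM in vehicle-treated and 190–395 CPM in indole-treated mice, and the part of these cells in the result was not tested.

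The genes most like *Fkbp5* were *Crp* (r=0.851), which encodes C-reactive protein, *Tmem223* (0.848), *Nicn1* (0.844), *Sat2* (0.83) and *Fam210b* (0.829). Those most like *Cdkn1a* were *AB124611* (0.864), *Tapbp* (0.843), *Dmpk* (0.841), *Rims3* (0.832) and *Trim12a* (0.831), and each of these 5 was highest in G8. That mouse also had the highest macrophage marker sum, 827 CPM, and a T and NK cell marker sum of 8.61 CPM against at most 3.46 CPM in the vehicle group. The part of these cells in the level of *Cdkn1a* was not tested.

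Further genes of the same pathways were read as lists. For comparison with each list, 48.7% of all tested genes were lower under indole, and 3.81% had an unadjusted *p* below 0.05 by edgeR. Of 37 other tested glucocorticoid-induced liver genes, 18 were higher and 19 lower under indole (median log2 fold change −0.01). None passed at an adjusted *p* below 0.05, and 1 had an unadjusted *p* below 0.05. This was *Klf9*, a glucocorticoid-induced transcription factor, at 115±30.2 CPM in vehicle-treated and 89.2±12.4 CPM in indole-treated mice (SD, *n*=7 each). Its log2 ratio was −0.36±0.149 (unadjusted *p*=0.0261 and adjusted *p*=0.998 from edgeR). The most abundant, the urea cycle gene *Cps1*, was at 5574±698 and 5180±1187 CPM (log2 fold change −0.11).

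Of the 29 tested genes of the receptor's chaperones and cofactors and of hormone supply and clearance, 12 were higher and 17 lower, with a median log2 fold change of −0.03. *Hsd11b1*, which regenerates active hormone inside the hepatocyte, was the most abundant, at 1053±94.1 and 1129±151 CPM (log2 fold change 0.10±0.0889). *H6pd*, the enzyme that supplies its cofactor NADPH, was at 452±39.2 CPM for vehicle and 375±44.7 CPM for indole. Its log2 ratio was −0.27±0.0832 (unadjusted *p*=0.00417 and adjusted *p*=0.998 from edgeR). The chaperone gene *Hspa8* was at 526±90.2 and 624±116 CPM (log2 fold change 0.25, unadjusted *p*=0.0494 and adjusted *p*=0.998 from edgeR).

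Covariation with these lists differed from gene to gene. Of the 29 receptor genes 7 had an r of 0.6 or more with *Fkbp5*, led by the chaperone gene *Hsp90ab1* (0.821), beside 3.05% of all tested genes, and 1 had −0.6 or less. For *Tsc22d3*, 6 of the 37 glucocorticoid-induced genes had an r of 0.6 or more, led by the phosphatase gene *Dusp1* (0.728), beside 2.58% of all genes. For *Tat* it was 5 of the 37, led by the alanine aminotransferase gene *Gpt2* (0.768), and 6 of 23 fasting genes, led by *Pck1* (0.752), beside 1.75% of all genes. In each of these lists 1 gene had −0.6 or less with *Tat*, *Rgs3* (−0.607) and *Txnip* (−0.601), beside 1.98% of all genes. *Mt1*, *Lpin1*, *Fkbp5*, *Zbtb16* and *Cdkn1a* had fewer relations at 0.6 or more with the same 37. *Nr3c1*, *Mt2* and *Sgk1* were not compared gene by gene with the lists. *Mt1* had 3 at 0.6 or more (beside 2.95% of all genes) and 1 at −0.6 or less, and *Lpin1* had 2 (beside 1.90%) and 3 (beside 3.34%). *Fkbp5* had 1 in each direction, with *Tle3* at −0.795, and *Zbtb16* and *Cdkn1a* had 0 in either. These values are descriptions over the 14 mice.

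None of the 23 tested genes of zinc and metal handling had an r of 0.6 or more with *Mt1*, beside 2.95% of all genes, and their median r was 0.01. The lowest was the zinc transporter gene *Slc39a11* at −0.626. Between the groups 6 were higher and 17 lower, with a median log2 fold change of −0.03. The zinc importer gene *Slc39a14* was at 146±28.0 CPM in vehicle-treated mice and 123±7.45 CPM in indole-treated mice (log2 fold change −0.25, unadjusted *p*=0.0199 and adjusted *p*=0.998 from edgeR), and the most abundant gene, the copper protein gene *Cp*, had a log2 fold change of −0.16.

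The lists for oxidative stress and p53 had medians near 0. Of 15 oxidative stress genes 10 were higher and 5 lower, with a median log2 fold change of 0.03 and no unadjusted *p* below 0.05, and their most abundant gene *Cat*, which encodes catalase, had a log2 fold change of 0.10. Of 17 p53 targets 9 were higher and 8 lower (median 0.01), again with none below 0.05, and the most abundant, *Ei24*, had 0.02. *Cdkn1a* had an r of 0.804 with *Trp53*, the gene of p53 itself, the only 1 of the 17 at 0.6 or more, beside 2.37% of all genes. *Cdkn1a* had few reads, from 3 in G14 to 32 in G8, and the part of these mice in this value was not tested.

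Of 23 fasting genes 13 were higher and 10 lower (median 0.01). *Cpt1a*, the gate of fatty acid oxidation, was at 373±19.5 and 334±33.1 CPM (log2 fold change −0.16, unadjusted *p*=0.0384 and adjusted *p*=0.998 from edgeR). Of 19 clock genes 7 were higher and 12 lower (median −0.06), with *Bhlhe41* at 3.16±1.0 and 2.09±1.06 CPM (log2 fold change −0.58, unadjusted *p*=0.0489 and adjusted *p*=0.998 from edgeR) and *Dbp* at −0.06.

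Of 31 acute phase genes 3 were higher and 28 lower (median −0.20), with 6 at an unadjusted *p* below 0.05, all lower, and 0 at an adjusted *p* below 0.05. Among all tested genes 48.7% were lower, and 2.28% were lower at an unadjusted *p* below 0.05 by edgeR. The 6 were *Saa1*, *Saa2*, *Socs3*, *Stat3*, *Il6ra* and *Il1r1*, from a log2 fold change of −3.09 for *Saa2* to −0.24 for *Il6ra*, and the most abundant gene, *C3*, was at −0.15. The values of *Saa1* and *Saa2* rested largely on vehicle-treated mouse G11. *Saa1* was at 2050 CPM in G11 and 480 CPM in G13, and at 23.3–109 CPM in the other vehicle-treated mice. Without G11 the log2 fold change went from −2.82 to −1.17 for *Saa1* (unadjusted *p*=0.136 from edgeR) and from −3.09 to −1.23 for *Saa2* (unadjusted *p*=0.125 from edgeR). The list then had 7 genes higher and 24 lower, with 2 at an unadjusted *p* below 0.05. G11 was also the mouse where *Tat* and *Cdkn1a* were the highest of the vehicle group. Of these 31, 5 had an r of 0.6 or more with *Cdkn1a*, led by the haem-binding *Hpx* (0.732), beside 2.37% of all genes. With *Fkbp5* it was 3 (beside 3.05%), with *Tsc22d3* 2 (beside 2.58%) and 2 at −0.6 or less, and with *Mt1* 1, *Cebpb* at 0.633 (beside 2.95%). Metallothioneins are known as acute phase genes, and the median r of *Mt1* with the list was −0.04. Against the summed acute phase level *Mt1* had r=−0.223 over all mice and −0.53 without G12 and G14. Among vehicle-treated mice it was −0.89 (unadjusted exact permutation *p*=0.00536) and among indole-treated mice −0.187 (exact permutation *p*=0.698), a difference that was not tested. *Mt2* had −0.848 and −0.139 in the same groups (exact permutation *p*=0.0101 and 0.776), and is no separate result, with r=0.989 to *Mt1* among vehicle-treated mice. Each group had 50 such relations, and these *p* values were not adjusted. *Sgk1* with *Pdk4* had r=−0.827 among indole-treated mice (exact permutation *p*=0.00238). *Cdkn1a* with *Pdk4* had r=0.882 among vehicle-treated mice (exact permutation *p*=0.00714).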

How the data were processed

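RNA from the right liver lobe of 14 mice was sequenced as strand-specific polyA libraries, and the authors trimmed adapters, aligned to GRCm38 with HISAT2 (Ensembl release 102), kept uniquely mapped reads and deposited whole read counts per gene, with no normalisation. The counting tool and its strand setting are not given in the sources used here. Groups were taken from the labels, which give no batch or pairing, and each library is a separate mouse. The 10 genes and the gene lists were chosen with earlier results of these data known.

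Counts were scaled by TMM, filtered with filterByExpr and tested across all 12653 remaining genes with edgeR 4.0.16 (R 4.3.3, robust quasi-likelihood test, Benjamini-Hochberg adjustment). Tested on simulated counts in which 200 genes were altered by a log2 fold of 1, it recovered 156 and called 8 unaltered genes. The altered genes were drawn at random from all tested genes. Recovery for genes that vary as widely as *Mt1*, *Mt2* and *Zbtb16* was not computed separately. Log2 CPM with a prior count of 2 served for the exact permutation tests and the correlations (100000 permutations, or all orders within a group). Alternatives were DESeq2 1.42.0, limma 3.58.1, other scaling, filters and prior counts, group-centred correlations and leaving out each mouse. Leaving out G8 and G11, or G12 and G14, was added after seeing the data. Named were the 10 genes, list genes with an unadjusted *p* below 0.05 or the highest CPM, and the 5 genes most like *Mt1*, *Fkbp5* and *Cdkn1a*. The hepatocyte marker *Tf* matched no row. Adipocyte (*Lep* and *Retn* at 0), B cell, neutrophil, endothelial, bile duct, erythroid and pancreatic markers were also summed. In the vehicle and indole groups these sums were at most 1.15 and 0.82 CPM for adipocytes, 1.56 and 2.82 for B cells, 2.66 and 2.42 for neutrophils, 144 and 190 for endothelium, 46.9 and 45.1 for bile duct, 384 and 1090 for erythroid cells, and 13.2 and 19.7 for pancreas. Motifs were searched on both strands of the RefSeq windows (GRCm38.p6), which matched 8 of the 10 genes. Values of some listed genes are not reported here.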

Additional observations from a re-analysis of the deposited data

Results flagged for a closer look

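In 5 of 22 group comparisons, over the 10 genes and the *Mt1* to *Mt2* ratio in each group, 1 mouse stood apart from the rest of its group. A mouse was counted as apart where its gap to the nearest other mouse, as a share of the group's range, was above Dixon's critical value for 7 mice. Chance alone gives this in about 1 in 20 groups when values are independent and normally distributed. Here the gaps were taken on CPM and not on log2 CPM, and all 5 lay at the high end. *Mt1*, *Mt2* and their ratio are also not independent. The 5 of 22 therefore cannot be set against that rate.

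For *Tat* in the vehicle group the gap was 0.802 of the range, between 1550 CPM in G11 and 928 CPM in the next mouse. For *Cdkn1a* in the same group the gap was 0.679, between 1.5 CPM in G11 and 0.927 CPM in the next. For *Cdkn1a* in the indole group it was 0.725, between 2.15 CPM in G8 and 0.720 CPM in the next. For *Sgk1* in the indole group it was 0.671, between 45.7 CPM in G12 and 25.0 CPM in the next. For *Tsc22d3* in the vehicle group it was 0.586, between 105 CPM in G4 and 65.6 CPM in the next.

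Mouse G11 also had the highest acute phase sum, 45900 CPM, and G8 the highest macrophage marker sum, 827 CPM, and the part of either in these values was not tested.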

How the results depend on the processing

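Of all genes tested, 482 had an unadjusted *p* below 0.05 by edgeR, 1336 without the filter on low counts and 386–627 when 1 mouse was left out. At an adjusted *p* below 0.05, where edgeR called 0, DESeq2 called 1, the cytochrome gene *Cyp2c29*, named after its value was seen (log2 fold change 0.42, adjusted *p*=0.0393). Of the 10 genes, 0 had an unadjusted *p* below 0.05 by edgeR, 2 by limma's voom (*Mt1* and *Mt2*), 1 by the fit that was not robust (*Mt1*), and 0–2 when 1 mouse was left out. By the exact permutation test it was 0–2 when 1 mouse was left out (*Mt1* and *Mt2* without G3 or G13, *Cdkn1a* without G8) and 1 without G8 and G11 (*Cdkn1a*). Over all alternatives the log2 fold change of *Mt1* kept its sign, from −1.17 to −0.67, as did that of *Mt2*, from −1.08 to −0.58, and so did *Nr3c1* (−0.12 to −0.028), *Tsc22d3* (0.029 to 0.30), *Tat* (0.058 to 0.47) and *Zbtb16* (0.045 to 0.59), though for these 4 the value changed by over 1.5 times with 1 mouse.

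The sign was not stable for 4 genes when 1 mouse was left out. The log2 fold change then ran from −0.132 to 0.0403 for *Fkbp5*, from −0.159 to 0.261 for *Sgk1*, from −0.233 to 0.0381 for *Lpin1* and from −0.654 to 0.0398 for *Cdkn1a*, and the difference in mean log2 CPM from −0.109 to 0.0527 for *Fkbp5* and from −0.088 to 0.226 for *Sgk1*. Without G8 and G11 the log2 fold change of *Lpin1* was 0.0886 and the difference in mean log2 CPM was 0.0276 for *Lpin1* and 0.00774 for *Fkbp5*.

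Of the 45 pairs, 2 passed at an adjusted *p* below 0.05, 7 when genes were centred on their group means (also *Mt1* and *Mt2* with *Lpin1*, *Lpin1* with *Tat* and *Zbtb16*, and *Tsc22d3* with *Sgk1*), 1–6 when 1 mouse was left out (6 without G5), and 1 without G8 and G11 or without G12 and G14. *Mt1* with *Mt2* passed in each of these. Of the 50 relations with reference levels 0–1 passed when 1 mouse was left out, which was *Cdkn1a* with the macrophage markers without G14 (r=0.862, adjusted *p*=0.011). The cause of these changes was not tested. No paired analysis was possible because the labels give each mouse its own number. Depth limits *Cdkn1a*, with 195 reads in all, and *Zbtb16*, with 1210.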

Other observations

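The clock and glucocorticoid target gene *Per1*, chosen after its values were seen, was highest in G12 (39.5 CPM) and G4 (34.0 CPM) and lowest in G13 (4.78 CPM), which were also the 2 highest mice and the lowest mouse for *Sgk1*. Its group means were 22.6±9.56 CPM for vehicle and 23.2±9.13 CPM for indole (SD, *n*=7 each; log2 fold change 0.04, adjusted *p*=0.998 from edgeR).

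*Slc30a1*, the zinc exporter gene that is induced by MTF1 together with the metallothioneins, was also looked up after the data were seen. It was highest in G1 (3.30 CPM), G9 (3.12 CPM) and G4 (3.02 CPM) and lowest in G8 (1.41 CPM), G7 (1.53 CPM) and G11 (1.66 CPM). *Mt1* was highest in G4 and G1 and lowest in G12 and G14, where *Slc30a1* was at 1.92 and 1.99 CPM.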
